A study of Mus musculus with 4 samples.

Results

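The genes of cholesterol and fatty acid synthesis were followed in the livers of LB1 and control mice. The list of 44 members was drawn up by function with earlier results of these data known, and its rule used gene symbols and no measured values: every probe that was not an array control and whose gene name was one of the members was taken, with Sc4mol read as the older symbol of Msmo1. They form a sterol arm of 21 genes and a fatty acid and triglyceride arm of 23 genes, out of 19713 named genes on the array. The arrays held 88 probes for them. A probe was tested only where the 2 arrays of LB1, or the 2 of the control group, both gave a signal well above background, which left 81 probes and 43 members. The remaining member, Pnpla3, a lipid droplet hydrolase, was well above background on 1 control array only.

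The study gave mice a Lactobacillus taken from ostrich and followed their weight, intestinal bacteria and metabolism. Liver RNA was measured on Agilent arrays with 1 dye, 1 array per mouse. The LB1 group was 2 female BALBc mice, whose titles read "stuff", and they were compared with 2 female BALBc mice of the control group. All 4 livers were taken 20 days after inoculation. The meaning of LB1, the treatment of the controls and the age of the animals are not given in the sources used here.

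Liver makes cholesterol and fatty acids from the same precursor, cytosolic acetyl-CoA. The sterol arm runs through mevalonate, isoprenoids, squalene and lanosterol to cholesterol, and the fatty acid arm through malonyl-CoA to palmitate, which is then desaturated, elongated and built into triglyceride. Both arms are transcribed under sterol regulatory element-binding proteins (SREBPs): SREBP-2, encoded by Srebf2, acts mainly on the sterol arm, and SREBP-1c, an isoform encoded by Srebf1, mainly on the fatty acid arm. SREBP precursors are held in the endoplasmic reticulum by the Insig proteins when sterols are plentiful. The carbohydrate-responsive factor ChREBP, encoded by Mlxipl, also drives the fatty acid arm.

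Promoters of 35 of the 44 members were matched in the RefSeq table of build GRCm38.p6, with 43 start sites. Each window ran from 250 bases before the start to 50 bases after it, and both strands were searched. CCAAT, the box read by NF-Y, a partner of SREBPs, was in 80% of the 20 sterol arm windows and 60.9% of the 23 windows of the fatty acid and triglyceride arm, against 37.4% of all 32851 windows. GGGCGG, the box of Sp1, was in 85% and 47.8%, against 35.7% of all windows. CACGTG, an E-box, was in 20% and 13%, against 7.15% of all windows. The sterol regulatory element core TCACNCCAC was in 2 member windows, those of Hmgcs1 and Mlxipl (4.65%), against 1.24% of all windows. These matches describe the letters only.

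The 250 bases upstream of the start are given for 4 members. Hmgcs1 was chosen because it held the core, Nsdhl because it fell at a pair of probes, and Srebf2 and Fasn because they rose and stand for the regulator of the sterol arm and the synthase of the fatty acid arm. All are GRCm38.p6, written 5′ to 3′ on the gene's strand, and the capitals mark the sterol core and CCAAT or its reverse complement ATTGG. In Fasn a forward and a reverse box overlap.
Hmgcs1, chr13:119690101-119690350, plus strand: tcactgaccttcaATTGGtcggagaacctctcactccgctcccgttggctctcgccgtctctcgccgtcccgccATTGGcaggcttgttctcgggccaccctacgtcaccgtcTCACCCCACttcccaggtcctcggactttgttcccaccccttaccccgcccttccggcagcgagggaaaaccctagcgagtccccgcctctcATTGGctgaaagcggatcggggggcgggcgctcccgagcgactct
Nsdhl, chrX:72918271-72918520, plus strand: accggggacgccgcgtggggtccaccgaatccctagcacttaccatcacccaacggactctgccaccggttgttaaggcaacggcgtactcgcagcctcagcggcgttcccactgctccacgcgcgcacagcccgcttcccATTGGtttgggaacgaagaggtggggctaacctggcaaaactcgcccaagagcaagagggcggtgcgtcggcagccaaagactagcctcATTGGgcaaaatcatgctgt
Srebf2, chr15:82147019-82147268, plus strand: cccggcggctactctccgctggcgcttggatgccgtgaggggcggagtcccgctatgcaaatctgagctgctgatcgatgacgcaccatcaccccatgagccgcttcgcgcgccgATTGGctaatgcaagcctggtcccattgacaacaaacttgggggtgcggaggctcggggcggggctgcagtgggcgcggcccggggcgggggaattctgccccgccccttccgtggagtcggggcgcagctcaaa
Fasn, chr11:120824548-120824797, minus strand: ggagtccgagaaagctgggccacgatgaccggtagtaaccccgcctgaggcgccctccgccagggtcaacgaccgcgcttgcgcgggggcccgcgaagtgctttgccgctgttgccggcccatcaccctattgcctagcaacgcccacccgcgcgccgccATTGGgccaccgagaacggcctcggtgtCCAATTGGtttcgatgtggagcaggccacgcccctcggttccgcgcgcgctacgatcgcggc
The core of Hmgcs1 began 137 bases before the start, between the second and the last of the 3 CCAAT boxes in the printed bases. The whole window searched held 4 such boxes.

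Some members had probes that were called in opposite directions. For Hmgcs1, which also held the sterol core, the probes themselves are shown. The first 30 of their 60 bases are given in lower case, with coordinates on mm9 as the files give them and the call after the gene name.
Hmgcs1, called higher, chr13_random:114807-114866, minus strand: tatgttttgaaaagagtaattttaacgttt
Hmgcs1, called lower, chr13_random:117667-117726, minus strand: tgcccttgataaaataacagcaagtttatg
The probe called higher lay nearer the 3′ end, as it did in Fdft1 and Dgat2.

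LB1 arrays were dimmer than control arrays, although the median of 6 RNA spike-ins within range was 1.35-fold higher on them. Their 75th percentile of signal stood at 146.9 and 80.8, against 410.9 and 414.7 in the control group. Spots well above background numbered 22921 and 20311 on the LB1 arrays, against 25861 and 24736 on the control arrays, of 43379 each. Values below are therefore log2 signal levels scaled to each array's own 75th percentile, and a difference is LB1 minus control on that scale. The arrays correlated at 0.973 within the LB1 pair, 0.989 within the control pair and 0.906 to 0.950 between groups. Of all 22974 tested probes, 32.4% were called, meaning an adjusted p under 0.05 by limma with Benjamini-Hochberg adjustment over all tested probes. Each group has only 2 arrays, which limits the precision of every value. In whole liver, a change in the number of cells of a type and a change in RNA per cell cannot be told apart.

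Members of the module moved in both directions, at about the rate of the other genes on the array. With each gene represented by its brightest probe, 10 of 43 members rose in LB1 livers (23.3%, against 20.6% of 13439 named genes) and 4 fell (9.30%, against 10.4%). The other 29 were not called. In the sterol arm 6 of 21 rose, namely Hmgcs1, Hsd17b7, Ebp, Dhcr7, Srebf2 and Stard4, and Fdft1 and Cyp51 fell. In the fatty acid and triglyceride arm Acly, Acacb, Fasn and Dgat2 rose and Fads1 and Dgat1 fell, of 22 tested. The rises of Dgat2 and Ebp are only upper limits, since both control spots of Dgat2 and 1 of Ebp were saturated. The median difference was 0.17 in the sterol arm and 0.20 in the fatty acid and triglyceride arm, against 0.25 over all named genes. The sterol median is the value of Idi1, whose probe position is in doubt, as given below. The sterol median minus the fatty acid median was thus -0.03, and within slides it was -0.09 on slide 1 and 0.0049 on slide 2. After quantile normalization, 5 members rose and 5 fell, against 11.6% and 13.5% of named genes, and the arm medians were 0.02 and 0.01. With each array scaled to its median in place of the 75th percentile the balance turned round: 2 members rose and 10 fell, and the arm medians were -0.46 and -0.43, against -0.39 over all named genes.

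**Figure D1:**
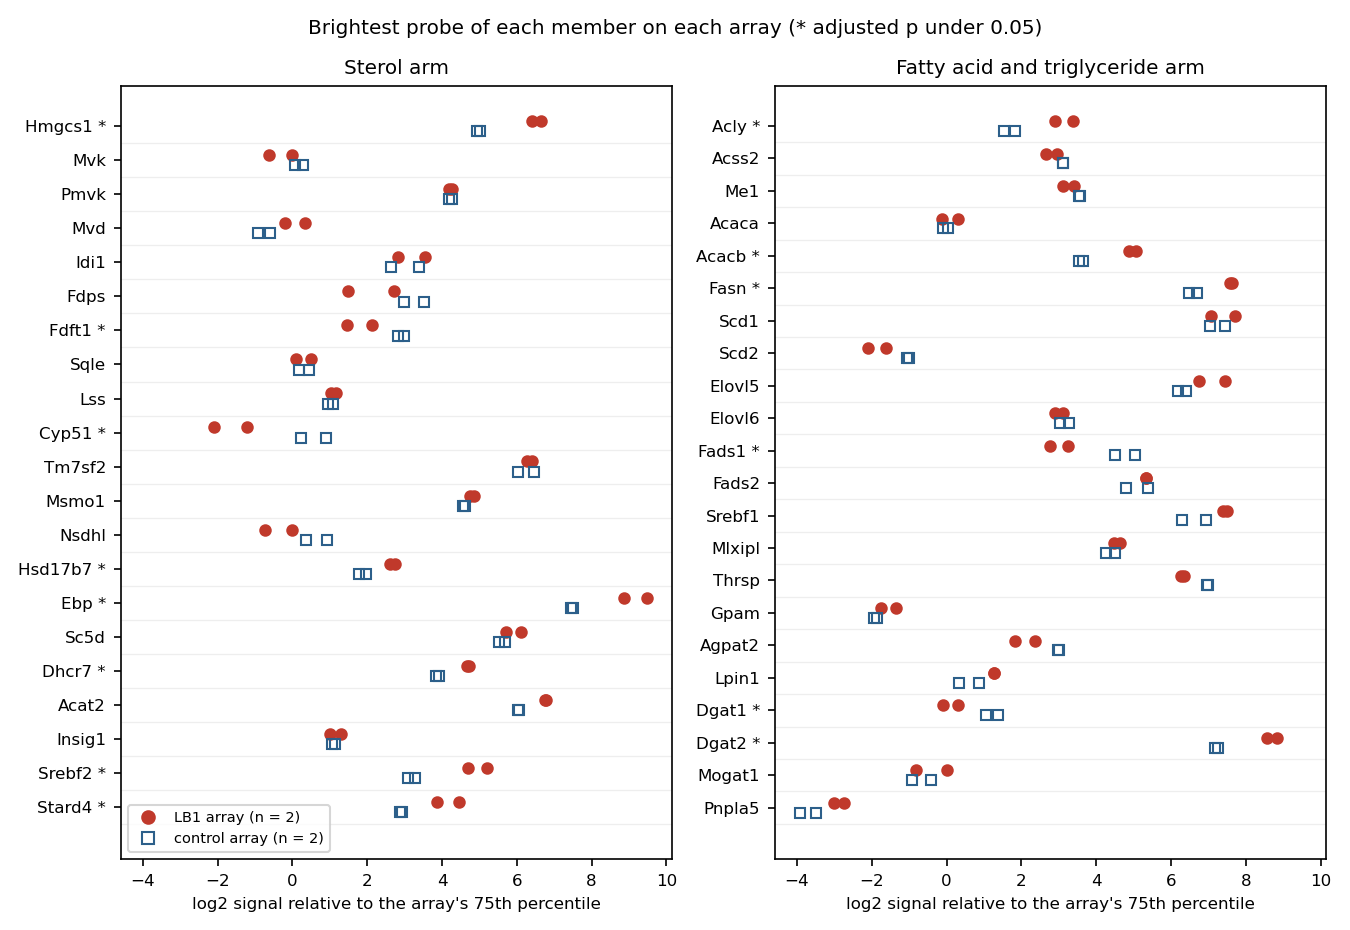
Signal of the brightest probe of each tested member, on a log2 scale set to 0 at the array's 75th percentile, with filled circles for the 2 LB1 arrays and open squares for the 2 control arrays, and an asterisk where the adjusted p was under 0.05. Both LB1 arrays lay above both control arrays in 19 of 43 members and below them in 12.

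Both LB1 arrays lay above both control arrays in 19 of the 43 members and below both in 12, while in the other 12 the groups overlapped. Over all named genes the same held for 48.2% above and 29.1% below. Counting probes in place of genes, 13 of the 81 tested member probes were called higher and 12 lower (30.9% called, against 32.4% of all probes).

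At the entry into the sterol pathway, the probes of Hmgcs1 were called in opposite directions. Hmgcs1, the cytosolic synthase that makes HMG-CoA, had 6.65 and 6.40 at its brightest probe in LB1 livers, against 5.03 and 4.93 in control livers. The groups did not overlap, and this probe rose 2.92-fold (log2 difference 1.54, SE 0.22, adjusted p = 0.0215). Its other tested probe, nearer the 5′ end, stood at -3.08 and -3.83 in LB1 livers, against -1.98 and -2.24 in control livers, a fall of 1.35 (SE 0.33, adjusted p = 0.0369). That fall rests on a dim probe that was well above background on 1 LB1 array only, and with normexp background correction its difference was 0.43 (adjusted p = 0.0193), the opposite direction. The bright probe kept a difference of 0.96 there and of 1.15 after quantile normalization (adjusted p = 0.0082 and 0.0349). No probe was called for Mvk, Pmvk and Mvd, which turn mevalonate into isopentenyl diphosphate (adjusted p = 0.234, 0.997 and 0.0759 at the brightest probe). The difference was -0.49 for Mvk and 0.84 for Mvd. Acat2, the thiolase that feeds acetoacetyl-CoA to Hmgcs1, differed by 0.70 (adjusted p = 0.0554).

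The isoprenoid and squalene steps followed no common direction. The brightest probe of Fdft1, squalene synthase, gave 2.12 and 1.47 in LB1 livers, against 2.82 and 2.99 in control livers. It fell by 1.11 (SE 0.30, adjusted p = 0.0448), and with the replicate block the adjusted p was 0.0547. The 3′ probe of Fdft1 went the other way: -0.80 and 0.30 in LB1 livers, against -4.64 and -4.59 in control livers. Its difference of 4.36 (SE 0.40, adjusted p = 0.0201) was the largest of any tested member probe, and the within-slide values were 3.84 and 4.89. It stayed called under normexp correction (2.54) and quantile normalization (3.94). A pair of probes of 1 gene thus gave opposite calls here, with all 4 arrays well above background at both. Sqle, squalene epoxidase, a rate-limiting enzyme of the later pathway, overlapped between groups: 0.50 and 0.10 in LB1 livers, against 0.45 and 0.18 in control livers (difference -0.01, SE 0.26, adjusted p = 0.971). Lss, which closes squalene oxide to lanosterol, differed by 0.07 (adjusted p = 0.808) at its brightest probe and by -0.19 and -0.41 at the others. Fdps, farnesyl diphosphate synthase, had probes at -1.15 and 1.15, neither of them called, though the first passed with the replicate block (adjusted p = 0.0462).

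Idi1, isopentenyl diphosphate isomerase, needs a caution of position. The files place both of its probes on chromosome 2, while RefSeq places the gene on chromosome 13. The brighter one stood at 3.55 and 2.82 in LB1 livers, against 3.38 and 2.64 in control livers (difference 0.17, adjusted p = 0.747). The dimmer one, at -3.67 and -2.73 in LB1 livers against -0.81 and -1.94 in control livers, was called lower (difference -1.82, SE 0.51, adjusted p = 0.0497) but not after quantile normalization (-2.34, adjusted p = 0.0583) or normexp correction (-0.02).

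Of the 8 enzymes from lanosterol to cholesterol, Cyp51 fell and Hsd17b7, Ebp and Dhcr7 rose at the brightest probe, while Nsdhl and Sc5d were called lower at other probes. Cyp51, lanosterol demethylase, had -1.20 and -2.09 at its brightest probe in LB1 livers, against 0.90 and 0.24 in control livers. It fell by 2.21 (SE 0.41, adjusted p = 0.0245), the within-slide values being -2.10 and -2.33, and its other probes differed by -1.24 (adjusted p = 0.0622, with the replicate block 0.0439) and -0.26 (adjusted p = 0.668). Nsdhl, which removes C4 methyl groups as a dehydrogenase, was lower at all 3 tested probes, of which 2 were called. The most 5′ one stood at -1.40 and -2.09 in LB1 livers, against 0.79 and 0.36 in control livers (difference -2.32, SE 0.33, adjusted p = 0.0212). The middle one stood at -0.41 and -0.82 in LB1 livers, against 0.94 and 0.68 in control livers (difference -1.43, SE 0.26, adjusted p = 0.0243). The brightest and most 3′ one, at -0.02 and -0.73 in LB1 livers against 0.93 and 0.38 in control livers, missed the threshold (-1.03, SE 0.35, adjusted p = 0.0767) but passed it with the replicate block (adjusted p = 0.0415). The fall of Nsdhl thus shrank from probe to probe towards the 3′ end. Msmo1, the C4-methyl sterol oxidase, and Tm7sf2, a sterol reductase, differed by 0.22 and 0.08 and were not called.

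Ebp, the sterol isomerase, gave 8.86 and 9.48 in LB1 livers, against 7.46 and 7.50 in control livers (difference 1.69, SE 0.28, adjusted p = 0.0230). Its spot was saturated on 1 control array, so that difference is an upper limit, and after quantile normalization the difference was 0.03 (adjusted p = 0.907). Hsd17b7, a sterol ketoreductase, stood at 2.60 and 2.74 in LB1 livers, against 1.96 and 1.78 in control livers, a rise of 0.80 (SE 0.22, adjusted p = 0.0472). Its other probe, with 1.13 and 0.79 in LB1 livers and 1.06 and 0.87 in control livers, differed by less than the spread between arrays. Dhcr7, which makes the last reduction to cholesterol in one branch, gave 4.67 and 4.71 in LB1 livers, against 3.91 and 3.85 in control livers (difference 0.81, SE 0.21, adjusted p = 0.0414). Its 5′ probe lay the other way, at -0.41 and -0.84 in LB1 livers against 0.04 and 0.12 in control livers (-0.71, adjusted p = 0.0829). Neither Hsd17b7 nor Dhcr7 was called after quantile normalization (adjusted p = 0.0652 and 0.116) or with the replicate block (adjusted p = 0.0703 and 0.0632). Sc5d, the sterol C5-desaturase, was not called at its brightest probe, which had 6.12 and 5.72 in LB1 livers and 5.68 and 5.51 in control livers (0.32, adjusted p = 0.341). Its 3′ probe fell, with 1.56 and 1.1 in LB1 livers against 2.32 and 2.34 in control livers (-1.0, SE 0.25, adjusted p = 0.0403), a call lost with the replicate block (adjusted p = 0.0507).

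Srebf2 and Stard4 rose at their 3′ probe, and Insig1 fell at its 5′ probe. Srebf2 gave 4.69 and 5.21 in LB1 livers, against 3.10 and 3.28 in control livers, at its brightest and most 3′ probe. That probe rose 3.38-fold (log2 difference 1.76, SE 0.27, adjusted p = 0.0219) and stayed called after quantile normalization (1.49). The more 5′ probes of Srebf2 differed by less. The nearer one stood at -0.34 and 0.09 in LB1 livers, against -0.86 and -0.94 in control livers (0.77, adjusted p = 0.0673). The farther one had 0.35 and 0.23 in LB1 livers, against 0.02 and 0.11 in control livers (0.23, adjusted p = 0.425). Stard4, a cytosolic cholesterol carrier, gave 3.86 and 4.45 at its 3′ probe in LB1 livers, against 2.94 and 2.88 in control livers (1.24, SE 0.28, adjusted p = 0.0323). Its 5′ probes gave -1.55 and -2.21, and -1.46 and -2.95, in LB1 livers, against -0.94 and -1.02, and -0.77 and -0.98, in control livers. These differences of -0.90 and -1.33 were not called. Insig1, the sterol-regulated retention protein, overlapped between groups at its brightest probe, with 1.29 and 1.0 in LB1 livers and 1.15 and 1.06 in control livers (0.04, SE 0.23, adjusted p = 0.910). Its 5′ probe fell, with -1.24 and -1.34 in LB1 livers against -0.22 and -0.32 in control livers (-1.02, SE 0.21, adjusted p = 0.0283).

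**Figure D2:**
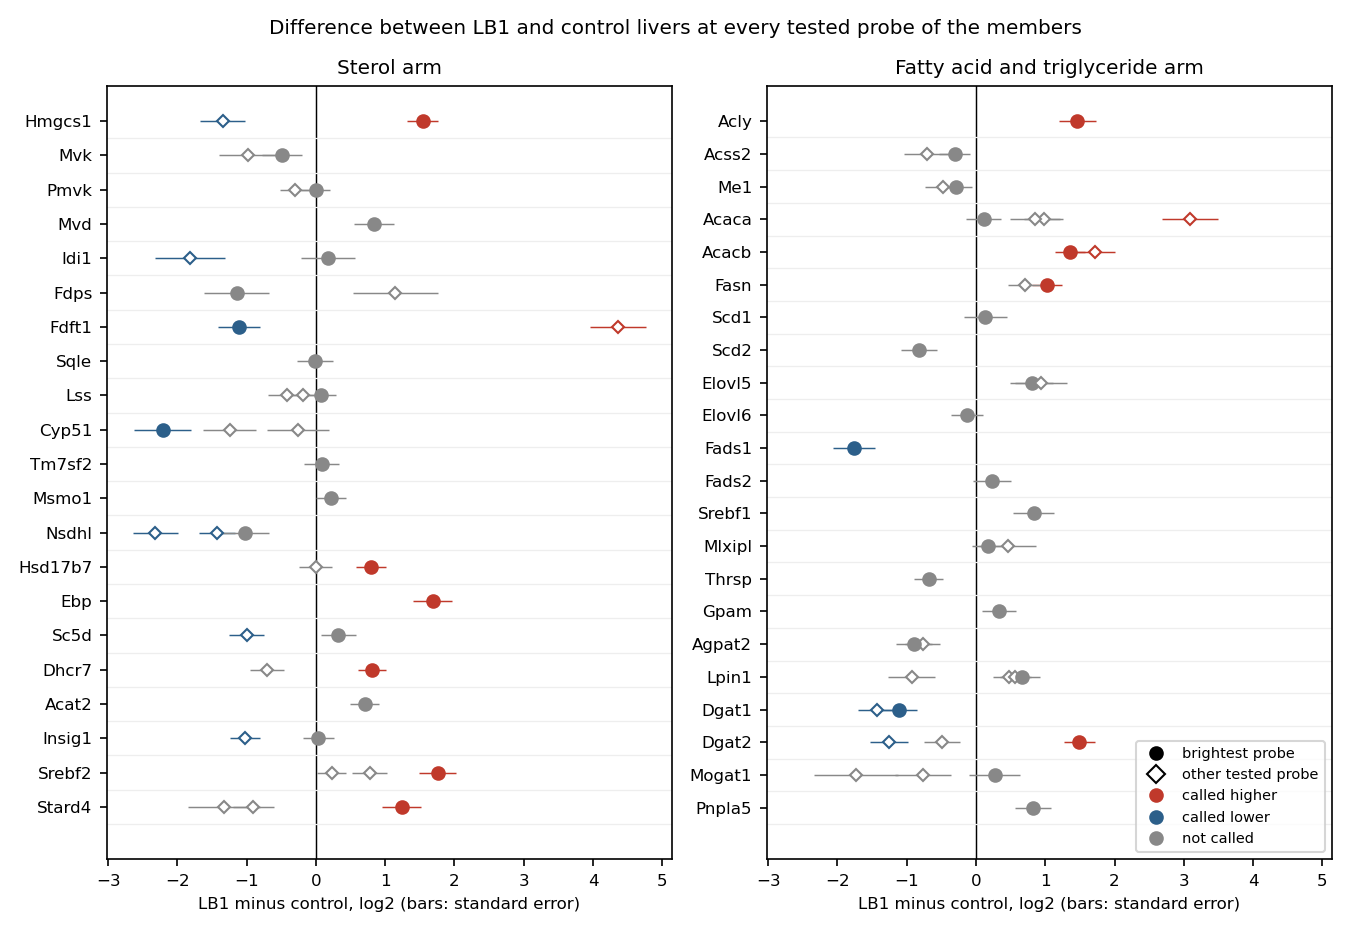
LB1 minus control on the log2 scale for all 81 tested member probes, with standard errors; large filled circles are the brightest probe of a gene, small open diamonds its other probes, red called higher, blue called lower and grey not called. Members with probes on both sides of 0, such as Fdft1 with 4.36 and -1.11, make up 10 of the 15 sterol arm members with at least 2 tested probes.

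Acly, Acacb and Fasn, enzymes on the way from citrate to palmitate, rose at their brightest probe. Acly, ATP citrate lyase, which makes cytosolic acetyl-CoA, gave 2.91 and 3.38 in LB1 livers, against 1.82 and 1.55 in control livers (1.46, SE 0.27, adjusted p = 0.0246). Acacb, the acetyl-CoA carboxylase of the mitochondrial surface, gave 4.87 and 5.06 in LB1 livers, against 3.55 and 3.66 in control livers (1.36, SE 0.22, adjusted p = 0.0222). A dim second probe of Acacb moved the same way (1.71, SE 0.29, adjusted p = 0.0232). It gave -2.82 and -3.24 in LB1 livers, against -4.49 and -4.99 in control livers. These levels lie near the lowest signal well above background, -3.64 and -3.34 on the LB1 arrays and -5.34 and -5.40 on the control arrays. That floor was itself higher on the LB1 arrays on this scale, and its part in the rise was not tested. The rises of Acly and Acacb stayed called after quantile normalization (1.37 for Acly, 1.07 and 1.0 for the probes of Acacb). Fasn, fatty acid synthase, stood at 7.64 and 7.57 in LB1 livers, against 6.68 and 6.47 in control livers, 2.04-fold higher (1.03, SE 0.22, adjusted p = 0.0295). After quantile normalization the difference was 0.51 (adjusted p = 0.139). The dimmer probe of Fasn, with 1.45 and 1.07 in LB1 livers and 0.65 and 0.45 in control livers, differed by 0.71 (adjusted p = 0.0805).

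Acaca, the cytosolic acetyl-CoA carboxylase and rate-limiting enzyme of the arm, overlapped between groups at its brightest probe, the most 3′ one, with -0.13 and 0.31 in LB1 livers and 0.04 and -0.08 in control livers (0.11, adjusted p = 0.742). The dim probe next to it rose by 3.09 (SE 0.40, adjusted p = 0.0212), with -0.99 and -0.21 in LB1 livers against -3.31 and -4.07 in control livers. The other probes of Acaca differed by 0.98 (adjusted p = 0.0525) and 0.85 (adjusted p = 0.125), each well above background on 1 LB1 array only. Acss2, which makes acetyl-CoA from acetate, and Me1, malic enzyme, a source of NADPH, were not called, with brightest-probe differences of -0.31 and -0.28.

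Desaturases and elongases did not share that direction. Fads1, the delta-5 desaturase of polyunsaturated fatty acids, gave 3.25 and 2.77 in LB1 livers, against 4.51 and 5.03 in control livers. It fell by 1.76 (SE 0.30, adjusted p = 0.0235), 3.38-fold, the within-slide values being -1.26 and -2.25. Fads2, the delta-6 desaturase, differed by 0.23 (adjusted p = 0.532). Scd1, the main stearoyl-CoA desaturase of liver, overlapped between groups: 7.07 and 7.70 in LB1 livers and 7.04 and 7.46 in control livers (0.14, SE 0.31, adjusted p = 0.753). The sign of that difference turned after quantile normalization (-0.71). Its relative Scd2, at a low level, differed by -0.82 (adjusted p = 0.0653). Elovl5 and Elovl6, which lengthen fatty acids, differed by 0.80 and -0.13 and were not called.

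No probe of the regulators of the fatty acid arm was called. Srebf1 gave 7.38 and 7.51 in LB1 livers, against 6.29 and 6.94 in control livers, so the groups did not overlap, with a difference of 0.83 (SE 0.30, adjusted p = 0.0839) that was 0.30 after quantile normalization. Its single probe does not separate the isoforms. Mlxipl gave 4.49 and 4.64 in LB1 livers, against 4.50 and 4.28 in control livers (0.17, SE 0.22, adjusted p = 0.572), and its other probe differed by 0.46 (adjusted p = 0.412). Thrsp, Spot 14, a nuclear protein linked to lipogenic transcription, was lower on both LB1 arrays, at 6.35 and 6.26 against 7.0 and 6.97 in control livers. Both control spots of Thrsp were saturated, so its difference of -0.68 (adjusted p = 0.0606) is an upper limit, and after quantile normalization it was called at -1.20 (adjusted p = 0.0261). In the exact two-sided permutation test over the 4 arrays, Srebf1 and Srebf2 had p = 0.333, Mlxipl p = 0.667 and Insig1 p = 1, where 0.333 is the smallest p that 6 assignments allow.

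Triglyceride assembly held both directions as well. Dgat1, one of the acyltransferases that finish triglyceride, fell at both of its probes. The brighter one gave 0.30 and -0.10 in LB1 livers, against 1.07 and 1.37 in control livers (-1.11, SE 0.26, adjusted p = 0.0348). The dimmer one gave -0.37 and -0.71 in LB1 livers, against 0.69 and 1.1 in control livers (-1.43, SE 0.27, adjusted p = 0.0247). Dgat2, the other such acyltransferase, depended on the probe. Its brightest and most 3′ probe had 8.57 and 8.84 in LB1 livers, against 7.25 and 7.17 in control livers (1.49, SE 0.23, adjusted p = 0.0217). Since both control spots were saturated, that difference is only an upper limit, and it was 0.28 after quantile normalization (adjusted p = 0.327). The middle probe of Dgat2, with 5.41 and 5.30 in LB1 livers and 5.61 and 6.08 in control livers, was not called (-0.49, adjusted p = 0.186). The 5′ one fell, at 3.05 and 2.82 in LB1 livers against 3.95 and 4.44 in control livers (-1.26, SE 0.27, adjusted p = 0.0297), and stayed called after quantile normalization (-1.47). The unsaturated probes of Dgat2 were thus both lower in LB1 livers. Gpam and Agpat2, which add the first and second acyl chain, Lpin1, a phosphatidate phosphatase, Mogat1, which acylates monoacylglycerol, and Pnpla5, a lipid droplet hydrolase, were not called. Their brightest-probe differences ran from -0.89 for Agpat2 to 0.82 for Pnpla5. Within Lpin1 the probes gave 0.67, 0.57, 0.48 and -0.93, and within Mogat1 0.27, -0.77 and -1.73.

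The probes of a member often disagreed. Of 27 members with at least 2 tested probes, 13 had differences of both signs (48.1%, against 46.6% of 5225 named genes), 10 of 15 in the sterol arm and 3 of 12 in the other. Calls in both directions were made in 3 (11.1%, against 4.65% of named genes), which are Hmgcs1, Fdft1 and Dgat2. The probe nearest the 3′ end had a higher difference than the one nearest the 5′ end in 19 of the 27 (70.4%), with a median gap of 0.32, against 53.8% and 0.10 over 5144 named genes with probes on 1 strand. The brightest probe had a higher difference than the dimmest in 19 of 27 too (70.4%, against 63.3% of named genes). Position and brightness often coincide in these genes, and their part in the disagreement was not tested.

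**Figure D3:**
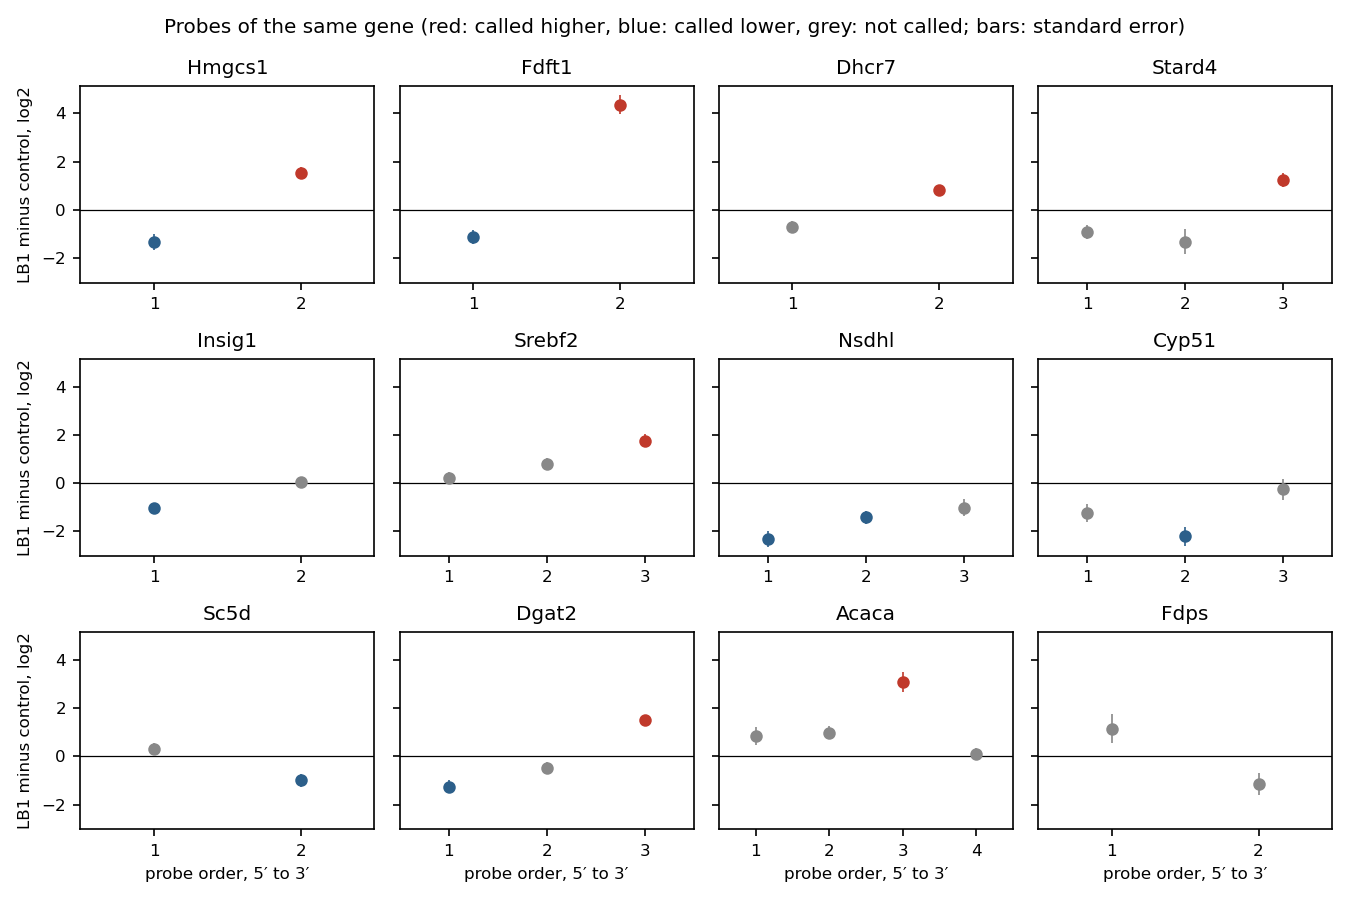
LB1 minus control on the log2 scale for the tested probes of 12 members whose probes differed in size or sign, ordered from 5′ to 3′ along the gene, with standard errors; red is called higher, blue called lower and grey not called. These members were chosen after their values were seen. Hmgcs1, Fdft1, Dhcr7, Stard4, Srebf2 and Dgat2 have their highest value at the most 3′ probe, while Sc5d, Fdps and Acaca do not.

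The difference also moved with signal level over the whole array. Among the 731 tested probes with a mean level of 6 or more, the median difference was 0.77, and 44.6% were called higher and 2.33% lower. Among the 4818 probes with a level from 0 to 2 the median was -0.01, with 12.8% called higher and 16.6% lower. The dimmest probes, below -2, again had more calls higher (22.6%) than lower (11.2%), with a median of 0.28. The bright member probes were on the same side as the rest. Of 9 at a level of 6 or more, 3 were called higher and none lower. Of 11 at a level from 4 to 6, 4 were called higher and none lower, against 23.7% and 7.26% of all tested probes there. Of 18 from 0 to 2, 4 were called lower and none higher. Member probes from 2 to 4 and from -2 to 0 lay below the rest, with medians of -0.31 and -0.74, against 0.20 and 0.01 over all tested probes. Below -2, 3 of 10 were called higher and 2 lower. After quantile normalization the brightest probes had a median of 0.07, and 6.29% were called higher and 9.44% lower. Of the 9 brightest member probes, 1 was then called lower and none higher. The rises of Ebp, Fasn, Dhcr7 and Dgat2 are among those lost, whereas those of Srebf2, Acly, Acacb, Hmgcs1 and Stard4 stayed called.

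**Figure D4:**
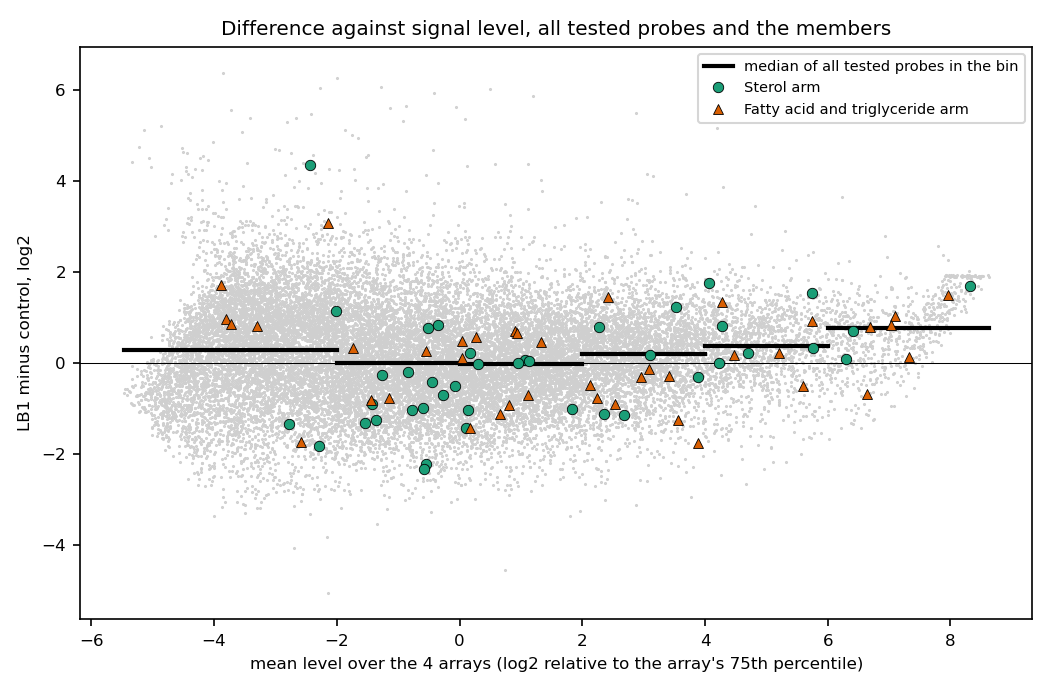
LB1 minus control (log2) against the mean level over the 4 arrays (same log2 scale), with all tested probes in grey, their median per level bin as black lines, sterol arm probes as circles and fatty acid and triglyceride arm probes as triangles. The median of all probes is 0.77 at levels of 6 or more and -0.01 from 0 to 2.

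Of the 25 called member probes, 12 kept their call and direction in the main setting, normexp correction, quantile normalization, scaling to the array median, cyclic loess, the rounded series values and the replicate block. The 4 higher ones were the 3′ probes of Fdft1 and Srebf2, the dim probe of Acaca and the dim probe of Acacb. That probe of Acacb lay near the lowest signal well above background on the arrays of both groups. The 8 lower ones were at Cyp51, Nsdhl (2 probes), Insig1, Fads1, Dgat1 (2 probes) and Dgat2. Scaling to the array median moved differences down over the whole array, and by itself kept 5 of 13 higher and all 12 lower member calls. Over all probes it took higher calls from 4409 to 1658 and lower calls from 3030 to 7126. The split of 4 and 8 therefore cannot be read as a trait of the members. The share of all called probes that kept their call in these settings is not given here. Leaving out control replicate 1 left 1 of the 25 calls and leaving out control replicate 2 left none, with the spread then taken from the LB1 arrays alone and assumed to hold for the single control array. Without LB1 replicate 2, 17 stayed called. Each slide held 1 LB1 and 1 control array and was scanned separately. With the slide, which equals the replicate number, as a block, the called probes of Idi1, Fdft1 (5′), Hsd17b7, Sc5d and Dhcr7 lost their call (adjusted p from 0.0507 for Sc5d to 0.0703 for Hsd17b7). The brightest probes of Nsdhl (adjusted p = 0.0415) and Fdps (0.0462), the 5′ probe of Cyp51 (0.0439), a dim probe of Acaca (0.0460) and a dim probe of Mogat1 (0.0406) gained one.

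Other genes of SREBP control and sterol handling, taken from lists of known pathway genes, held both directions too. Of 7 tested genes of SREBP processing, 3 rose (20.6% of all named genes did), and 1 of them stayed called after quantile normalization. Fbxw7, the ubiquitin ligase subunit that marks nuclear SREBPs for degradation, gave 0.95 and 1.03 in LB1 livers, against -0.13 and -0.61 in control livers (1.36, adjusted p = 0.0253). Mbtps1, the protease that makes the first cut in SREBPs, and Rxra, the partner of the liver X receptors, rose by 0.91 and 0.90 but were not called after quantile normalization. Of 5 sterol genes outside the members, 1 was called: Aacs, acetoacetyl-CoA synthetase, fell by 0.94 (adjusted p = 0.0314), with 3.73 and 3.74 in LB1 livers against 4.63 and 4.73 in control livers.

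Markers of other cell types moved beside these values. Of 8 mesothelial markers 5 were tested and 4 rose (20.6% of all named genes did), led by Msln at 6.04 and Krt7 at 4.69. Their summed linear level, in units of the array's 75th percentile, was 9.56 and 31.2 in LB1 livers, against 1.08 and 0.190 in control livers. The lowest signal well above background on the control arrays was -5.34 and -5.40. Of the called markers, Lrrn4 lay below it on both control arrays (-5.59 and -7.57), and Krt19 on control replicate 2 (-5.59). Lrrn4 and Krt19 were thus tested only through their LB1 arrays, and the size of their rise is uncertain. Wt1, Upk1b and Bnc1 were not tested. Of 8 adipocyte markers 3 were tested and 1 rose, Car3, whose spot was saturated on 3 arrays, and their summed level was 426 and 573 in LB1 livers, against 157 and 161 in control livers. That sum is almost wholly Car3 and so is limited by the same saturation. After quantile normalization Car3 differed by 0.33 (adjusted p = 0.230), and 0 adipocyte markers were called in either direction. In the main setting the tested marker Fabp4 differed by -0.35 (adjusted p = 0.257). The defining adipocyte genes Plin1, Lep and Retn were not tested, and Adipoq differed by 0.16 (adjusted p = 0.878). Of 7 tested hepatocyte markers, whose median difference was 0.54, Alb and Apoa1 were called higher (1.92 and 1.56) with spots saturated on 4 and 2 arrays. Cps1, saturated on 1 array, fell by 1.24, and Tat and Asgr1, each saturated on 2, were not called. Ttr (-0.13) and Hnf4a (0.54), with 0 saturated arrays, were not called either. Over all named genes 20.6% were called higher and 10.4% lower. After quantile normalization the hepatocyte median was -0.25, with 0 markers called higher and 1 lower, Cps1 at -2.15. Alb and Apoa1 then differed by 0.27 and 0.26 and were not called. The part of these markers in the members' differences was not tested.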

How the data were processed

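Liver RNA of 4 mice (2 LB1, 2 control) was measured on 4 arrays. The deposited scanner files hold linear spot intensity, per the file headers produced by scanner G2505C with Feature Extraction 10.5.1.1, with background removed and detrended within each array. The design text names other versions. The deposited series table holds the mean intensity rounded to whole numbers.

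Control and outlier spots were left out, log2 was taken of the deposited processed intensity, the array's 75th percentile was subtracted, and repeated spots were averaged into 41174 probes. The comparison of LB1 with control used limma 3.58.1 in R 4.3.3 (lmFit, eBayes), with Benjamini-Hochberg adjustment over 22974 probes and a threshold of 0.05. The p-values measure the spread between mice and arrays together. Probes were named by accession (24844), current symbol (6045) or older symbol (1810) through the RefSeq table, and 8475 kept the file's name.

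Members given on every array were those with a called probe, the regulators and the rate-limiting or defining enzymes. Members and lists were chosen with earlier results of these data known. Each slide, scanned separately, held 1 LB1 and 1 control array of the same replicate number. The replicate number is therefore also a slide and scan batch, per the file headers, and was fitted as a block in an alternative. Deviations of same-numbered arrays correlated at 0.151. The fit was tested on simulated data.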

Additional observations from a re-analysis of the deposited data

How the results depend on the processing

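Members called higher numbered 10 and lower 4 in the main setting. They were 5 higher with quantile normalization, 2 with the array median, 5 with cyclic loess (added after seeing the data) and 6 with the median over a gene's probes, and 15 lower with normexp, 10 with the array median, 7 with cyclic loess, 8 with all 4 arrays above background, 10 on the series table and 7 with trend and robust settings. The methods' t-test at its unadjusted threshold with 2-fold gave 2 lower and 7 higher, and after Benjamini-Hochberg 0 of each. Leaving out 1 array gave 0 to 12 higher and 0 to 10 lower. With the replicate block 8 were higher and 5 lower. Since each slide held 1 array of each group, the block alters only the spread and cannot change a difference or its direction. Over all probes (4409 higher, 3030 lower), higher calls were 11353 with normexp, 2451 with quantile normalization, 1658 with the array median, 2895 with cyclic loess, 17556 without a filter, 10691 on the series table, 2228 and 0 with the t-test, and 0 to 6009 without 1 array. Lower calls were 4643 with normexp, 7126 with the array median, 1881 and 0 with the t-test, and 1 to 5014 without 1 array.

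The sterol median (0.17) was -0.23 with normexp, 0.024 with quantile normalization, -0.46 with the array median, 0.022 with cyclic loess, -0.078 on the series table, 0.00045 with gene medians, 0.081 at 3′ probes and 0.12 to 0.29 without 1 array. The fatty acid median (0.20) was 0.11, 0.012, -0.43, -0.0012, 0.0085 and 0.15 in the first 6 of these, 0.23 without a filter, 0.17 with all 4 arrays above background or saturated probes left out, and 0.16 to 0.24 without 1 array. Their difference (-0.03) was -0.35 with normexp, -0.15 with gene medians, -0.10 at 3′ probes and -0.12 to 0.061 without 1 array. The array median moved all named genes to a median of -0.39, and the cause of the other shifts was not tested.

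Of 555 values of 35 named probes under alternatives, 386 kept direction and side of the threshold, 119 lost the call and 16 gained it. The other 34 changed sign, all at 8 probes. Several alternatives use the same difference and cannot change its sign: the block, the trend and robust setting, the t-tests and the changed probe filters. The 555 are therefore not all checks of direction. With normexp the sign changed for the 5′ probe of Hmgcs1 (0.43), Idi1 (-0.34), Sc5d (-0.23), Insig1 (-0.26), Scd1 (-0.49) and Mlxipl (-0.39). With quantile normalization it changed for Sqle (0.0033), Sc5d (-0.061), Scd1 (-0.71) and Mlxipl (-0.13). With the array median it changed for Idi1 (-0.46), Sc5d (-0.31), Insig1 (-0.60), Acaca (-0.52), Scd1 (-0.50) and Mlxipl (-0.46). With cyclic loess it changed for Sqle (0.022), Sc5d (-0.17), Scd1 (-0.57) and Mlxipl (-0.15). On the series table it changed for Hmgcs1 (0.11), Idi1 (-0.11), Insig1 (-0.14), Scd1 (-0.24) and Mlxipl (-0.14). Without 1 array the difference ran from -0.19 to 0.54 for Idi1, -0.21 to 0.18 for Sqle, -0.11 to 0.19 for Insig1, -0.11 to 0.33 for Acaca and -0.18 to 0.45 for Scd1. Signal over background limits the dimmest probes, of which 7 member probes passed it on 1 LB1 array only.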

Other observations

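Genes that feed or extend fatty acid synthesis outside the members also held both directions. Of 49 tested genes in the 7 further pathway lists, 13 rose and 4 fell, with a median difference of 0.48, against 20.6% higher, 10.4% lower and 0.25 over all named genes. After quantile normalization 5 were higher and 4 lower, with a median of 0.05. Among 11 genes of citrate, NADPH and sugar supply, 4 rose and 1 fell. Khk, ketohexokinase, was called higher with its spot saturated on 2 arrays. Idh1, a cytosolic source of NADPH, fell by 0.85 (adjusted p = 0.0439).

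Of 7 elongation genes, 2 rose and 1 fell, against 20.6% and 10.4% of all named genes. After quantile normalization 1 was called higher and 1 lower. Hacd3 was called higher with its spot saturated on 2 arrays, and after quantile normalization it differed by 0.27 (adjusted p = 0.319). Elovl3, an elongase of long saturated fatty acids, gave 1.32 and 3.02 in LB1 livers, against -0.37 and -0.83 in control livers (2.77, adjusted p = 0.0300), and Hacd2, a dehydratase of the elongation cycle, fell by 1.64 (adjusted p = 0.0232). Among 8 further genes of triglyceride assembly 3 rose, and 1 was called higher after quantile normalization. Agpat1, an acyltransferase of phosphatidic acid synthesis, had the largest rise (2.23, adjusted p = 0.0224). It gave -0.09 and 0.81 in LB1 livers, against -1.75 and -1.98 in control livers. Of 6 genes of sterol esterification and storage 1 was called: Soat2, the cholesterol acyltransferase of liver and gut, fell by 1.57 (adjusted p = 0.0212), with 0.35 and 0.21 in LB1 livers against 1.77 and 1.93 in control livers. Of 5 prenyl branch genes, Dhdds, which makes dolichol precursors, rose by 1.1 (adjusted p = 0.0356). Of the marker lists not given above, 3 of 5 lymphocyte markers were called higher, and 1 of the 5 after quantile normalization. Cd79a, called higher, lay near the lowest signal well above background on every array. Vsig4 alone of 6 Kupffer cell markers fell. Of 4 tested pancreatic markers Clps rose and Amy2a5 fell. Clps had -5.38 and -7.51 in control livers, below the lowest signal well above background on those arrays (-5.34 and -5.40). It was thus tested only through its LB1 arrays, and the size of its rise is uncertain. Of 4 tested cholangiocyte markers Krt7 and Krt19 rose and Spp1 fell. The probes of Krt7 and Krt19 are those already counted as mesothelial markers, and the limit given there for Krt19 holds here too. Over all named genes 20.6% were called higher and 10.4% lower.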
